A study of Homo sapiens with 4 samples.

Results

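The 45 genes described here encode the ion channels and the G-protein-coupled receptors that glutamate opens or activates, and the subunits of the GABA-A receptor. They were taken by symbol from 19974 protein-coding genes on chromosomes 1 to 22 and X: 18 ionotropic glutamate receptor genes, 8 metabotropic glutamate receptor genes and 19 GABA-A receptor genes, rho subunits included. The rule used symbols and no measured value, but it was set with earlier results of these data known. The data are ChIP-seq peak lists from MCF10A, an immortalised, non-tumorigenic human mammary epithelial cell line, grown in mammary epithelial medium with 100 ng/ml cholera toxin. There was 1 library each for H3K4me3, H3K27me3 and H3K79me2, and an input DNA library was not analysed here. All cells had the same treatment, so the comparison is between marks over the same genes. With 1 library per mark there is no replicate check, no error estimate and no test.

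Glutamate is the main excitatory and GABA the main inhibitory transmitter of the adult brain. AMPA, kainate and NMDA receptors are cation channels, metabotropic receptors signal through G proteins, and GABA-A receptors are chloride channels built from several subunits. Outside neurons, most of these genes are weakly expressed or silent. H3K4me3 marks active and poised promoters, H3K27me3 is laid down by Polycomb repressive complex 2, and H3K79me2 is laid down by DOT1L over the first part of transcribed genes. A promoter with both H3K4me3 and H3K27me3 is often called bivalent, but peaks from separate libraries do not show that both marks lie on the same chromosome copy.

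As a check of the label, 6 epithelial genes (KRT5, KRT14, CDH1, EPCAM, ITGB4 and KRT8) were all called for H3K4me3 and for H3K79me2 at a gene end, and 0 for H3K27me3. Of 6 neuronal genes outside the families (RBFOX3, SYN1, SNAP25, TUBB3, MAP2 and SYT1), 6 had H3K4me3, 1 had H3K27me3 (SNAP25) and 1 had H3K79me2 (TUBB3). These 12 genes were picked after the receptor genes had been examined. The neuronal genes thus differed from the epithelial genes in H3K79me2 rather than in H3K4me3.

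The receptor genes were poor in both active marks and rich in H3K27me3. For H3K4me3 and H3K27me3, a call required that the deposited peaks fill 25% or more of the 2000 bp centred on one of the ends of the gene record. For H3K79me2 the window was the 5000 bp inward from an end. H3K4me3 was called at 17 of 45 genes (37.8%, against 67.9% of all protein-coding genes). H3K27me3 was called at 17 of 45 (37.8%, against 9.10% of all genes), and H3K79me2 at 2 of 45 (4.44%, against 50.9% of all genes). Both H3K4me3 and H3K27me3 lay at the same end of 7 genes (3.66% of all genes had both), namely GABRA2, GABRA4, GABRB1, GABRB2, GRIN1, GRIN2D and GRM8. H3K4me3 was the 1 mark called at 8 genes (14.6% of all genes) and H3K27me3 at 9 (4.74% of all genes), while 19 had none of the 3 calls, as did 25.9% of all genes. GABRE, the gene of the epsilon subunit, was the 1 member with H3K4me3 and H3K79me2 but no H3K27me3, the combination found at 48.9% of all genes.

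**Figure D1:**
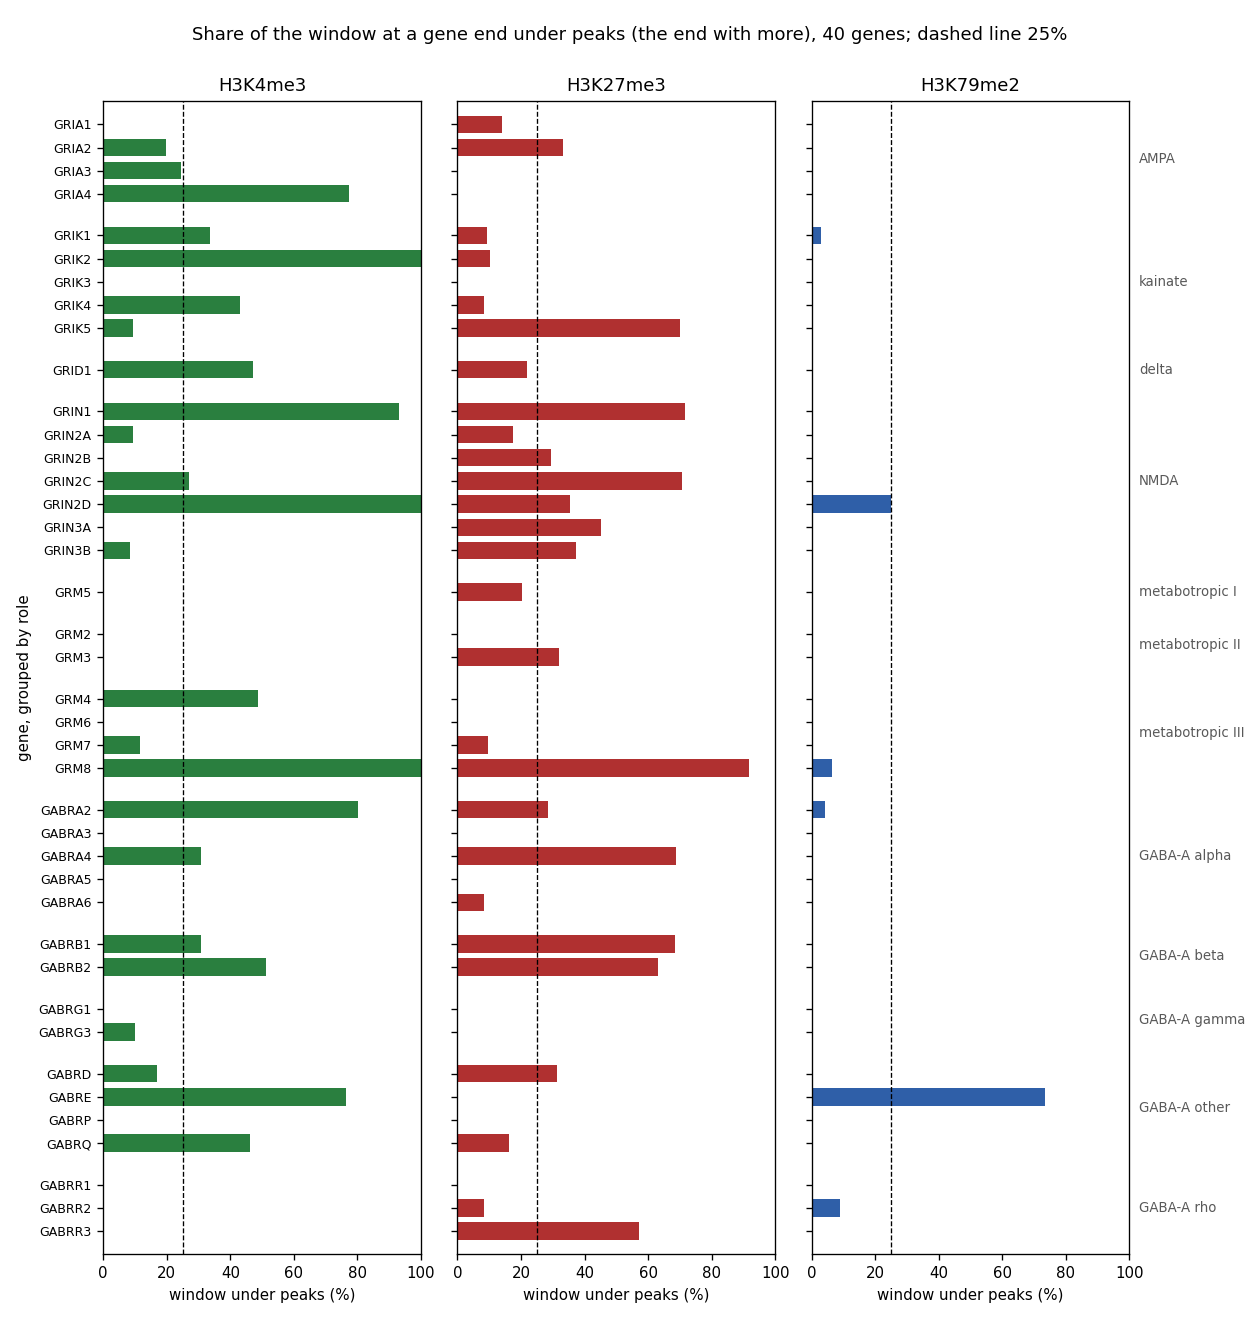
Share of the window at a gene end under peaks (horizontal axes, %) for 40 of the genes, grouped by role, with 1 panel per mark and the higher of both ends drawn. The H3K4me3 and H3K27me3 panels each have 16 bars past the dashed line of 25%, while the H3K79me2 panel has GABRE at 73.6% and GRIN2D at 25.1%.

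Receptor genes are long, with a median record of 146753 bp against 24170 bp for all genes, and 21 of the 45 exceed 200000 bp. The same counts were therefore set beside genes of like length. Among members over 200000 bp, 9 of 21 had H3K4me3 (72.5% of all genes of that length), 5 had H3K27me3 (17.8%) and 0 had H3K79me2 (42.0%). Among the 14 members of 50000 to 200000 bp, 4 had H3K4me3 (76.3%), 8 had H3K27me3 (9.38%) and 1 had H3K79me2 (60.2%). Among the 9 of 10000 to 50000 bp, 4 had H3K4me3 (72.4%), 3 had H3K27me3 (6.52%) and 1 had H3K79me2 (57.6%).

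A RefSeq promoter table of GRCh38.p14 placed the start and strand of 32 members. At these annotated starts, 12 genes had H3K4me3 (68.7% of placed genes), 11 had H3K27me3 (6.56%), 6 had both (3.25%) and 2 had H3K79me2 (53.3%). Some calls at an end are therefore not promoter calls. GRIK5 and GRIN2B were called for H3K27me3 at the 3′ end of the gene, and the H3K4me3 peak covering 100% of a window at GRIN2D lay at its 3′ end, beside the neighbouring gene GRWD1. The other 13 members, GABRD, GRIN1 and GRIN2C among them, were examined at both ends without a placed start.

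Of the 19 GABA-A genes, 16 lie in 5 clusters, and 3 of these clusters, which differed from one another in their marks, are described here. On chromosome 4, where GABRG1, GABRA2, GABRA4 and GABRB1 span 1390679 bp, 3 of 4 genes had H3K4me3 and the same 3 had H3K27me3. On chromosome 6, with GABRR1 and GABRR2, 0 of 2 had any call. On chromosome X, with GABRE, GABRA3 and GABRQ, H3K4me3 was called at 2 of 3, H3K27me3 at 0 and H3K79me2 at 1. These clusters hold few genes, and differences between them were not tested. Outside the 5 clusters, 11 of 29 members had H3K4me3, 12 had H3K27me3 and 1 had H3K79me2. The shares of all genes were 67.9%, 9.10% and 50.9%. The totals therefore do not come from the clusters alone.

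The cluster on chromosome 4 was divided within itself. H3K27me3 peaks numbered 535 over the cluster and the 5000 bp on either side, a margin kept for each cluster, covered 13.7% of it, and crowded over GABRA4 and GABRB1, the genes of the alpha and beta subunits at its higher-coordinate side. GABRA4 had 106 H3K27me3 peaks, which covered 62.7% of its record and the 5000 bp on either side. GABRB1 had 363, which covered 28.6%. GABRA2, an alpha subunit gene 528599 bp away from GABRA4, had 17 peaks over 2.54%, and GABRG1, a gamma subunit gene, had 13 over 2.67%, none of which reached a −log10 q of 1.3 (q of about 0.05). The records of GABRA4 and GABRB1 are divergent and 65 bp apart, so a single H3K4me3 peak of 614 bp (4.75-fold over the caller's background) and the H3K27me3 peaks around it give both genes their calls. The annotated start of GABRB1 lies further inside its record. There H3K4me3 covered 69.4% of the window, from a peak of 1897 bp and 6.26-fold, and H3K27me3 covered 85.1%, with a peak of 5.01-fold. At the start of GABRA2, H3K4me3 lay over 80.2% (2308 bp, 13.0-fold) and H3K27me3 over 28.4% (569 bp, 3.58-fold). Widths and folds in parentheses are those of the strongest peak reaching into the window, and other peaks can add to the covered share.

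The 250 bases before the annotated start are printed for 2 genes of this cluster that contrast in both marks, GABRB1 on the plus strand at chr4:47031317-47031566 and GABRG1 on the minus strand at chr4:46124055-46124304. They are from RefSeq (GRCh38.p14), 5′ to 3′ along the gene, with CG dinucleotides in capitals.
GABRB1: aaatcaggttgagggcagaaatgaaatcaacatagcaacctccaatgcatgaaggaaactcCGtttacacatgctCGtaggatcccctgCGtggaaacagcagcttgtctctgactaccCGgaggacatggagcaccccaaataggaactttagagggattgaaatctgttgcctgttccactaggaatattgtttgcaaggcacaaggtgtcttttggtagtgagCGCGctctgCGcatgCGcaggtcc
GABRG1: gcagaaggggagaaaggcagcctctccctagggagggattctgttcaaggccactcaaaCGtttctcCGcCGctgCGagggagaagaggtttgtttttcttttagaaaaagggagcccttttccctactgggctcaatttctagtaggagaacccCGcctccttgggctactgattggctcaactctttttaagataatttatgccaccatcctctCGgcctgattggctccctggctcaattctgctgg
The GABRB1 stretch has 8 CG dinucleotides and was covered to 100% by H3K4me3 and to 100% by H3K27me3 peaks. The GABRG1 stretch has 6 and was covered to 0% by each of the 3 marks. CG content is thus low in both, while the marks differ.

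Among other GABA-A genes, GABRB2, a beta subunit gene, had H3K4me3 from a peak of 2083 bp and 12.0-fold that covered 69.1% of the window at its annotated start. H3K27me3 covered 37.3% of the same window, and 76 H3K27me3 peaks covered 6.14% of its region. GABRA6, an alpha subunit gene known from cerebellar granule cells, had no call at an end, but 17 H3K27me3 peaks covered 17.6% of its region. GABRA5 and GABRG3 were nearly free of peaks. GABRA5 had 0 H3K4me3 and 0 H3K79me2 peaks within 5000 bp of its record and 1 H3K27me3 peak, and GABRG3 had 1 H3K4me3 peak of 198 bp, 6 H3K27me3 peaks and 2 H3K79me2 peaks.

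The rho subunit genes on chromosome 6 lay between GABRA6 and GABRA5 in H3K27me3. It covered 5.69% of GABRR1 and 13.4% of GABRR2 with their surroundings, and H3K4me3 had 1 peak, of 2000 bp and 3.68-fold, inside GABRR2. GABRR2 also held an H3K79me2 peak of 774 bp and 2.93-fold, away from the end windows.

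The cluster on chromosome X held the 1 member with H3K4me3 and H3K79me2 and without H3K27me3. At the start of GABRE, H3K4me3 covered 76.5% of the window from a peak of 4638 bp and 8.22-fold at chrX:151970568-151975205. H3K79me2 covered 73.6% of the first 5000 bp, its strongest peak being one of 3146 bp and 3.54-fold, and 0 H3K27me3 peaks lay within 5000 bp of the record. No end of another protein-coding gene lay in these windows. GABRQ, the theta subunit gene at the other side of the cluster, had H3K4me3 over 46.2% of its window (924 bp, 4.17-fold) without H3K79me2. GABRA3, between them, had no call, 1 H3K4me3 peak of 411 bp and 7 H3K27me3 peaks over 0.445% of its region.

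The 250 bases before the starts of GABRE, on the minus strand at chrX:151974677-151974926, and GABRQ, on the plus strand at chrX:152637645-152637894, show the CG-rich promoters of this cluster, again from RefSeq with CG in capitals.
GABRE: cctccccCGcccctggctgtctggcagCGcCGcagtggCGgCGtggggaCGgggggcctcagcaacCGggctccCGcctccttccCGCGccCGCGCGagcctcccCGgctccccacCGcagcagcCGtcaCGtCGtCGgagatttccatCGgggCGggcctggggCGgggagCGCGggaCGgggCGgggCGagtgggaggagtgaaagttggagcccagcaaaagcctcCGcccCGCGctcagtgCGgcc
GABRQ: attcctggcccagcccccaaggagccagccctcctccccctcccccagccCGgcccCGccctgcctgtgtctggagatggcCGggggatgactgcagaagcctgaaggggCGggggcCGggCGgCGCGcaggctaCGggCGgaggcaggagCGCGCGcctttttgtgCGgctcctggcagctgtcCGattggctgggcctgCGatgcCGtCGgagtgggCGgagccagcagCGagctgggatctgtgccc
GABRE has 31 CG dinucleotides here and GABRQ has 20, and each stretch holds the GC box GGGCGG 5 times when both strands are read. H3K4me3 peaks covered 100% of the GABRE stretch and 38.4% of the GABRQ stretch. H3K27me3 and H3K79me2 covered 0% of each.

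**Figure D2:**
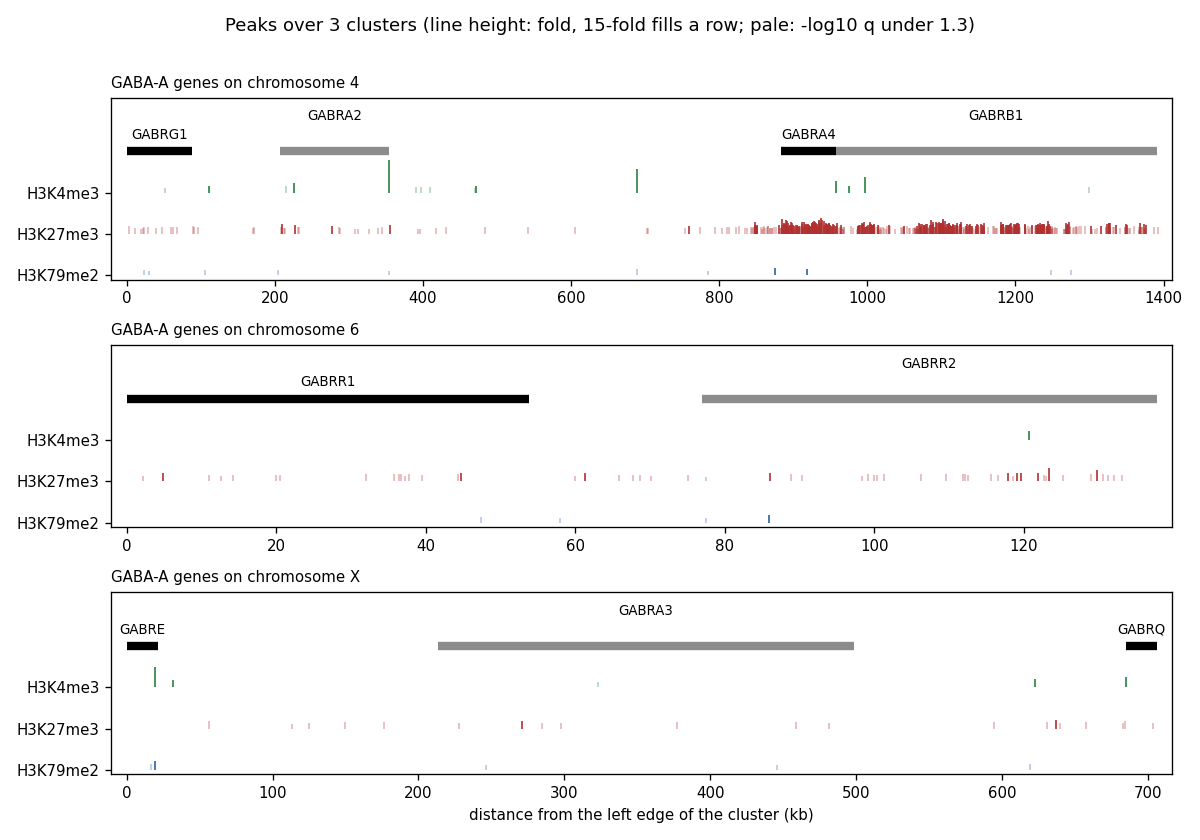
Peaks of the 3 marks over the clusters of GABA-A genes on chromosomes 4, 6 and X, against distance from the left edge of the cluster in kb, with gene records as bars, each peak as a vertical line with its fold as height, and peaks with −log10 q under 1.3 in pale. H3K27me3 is dense over GABRA4 and GABRB1 and sparse on chromosome X.

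Of the GABA-A genes outside clusters, GABRP is of interest in this tissue because its pi subunit is known from breast and uterus. It had 0 H3K4me3 and 0 H3K79me2 peaks within 5000 bp of its record, and 7 H3K27me3 peaks over 3.90%. GABRD, the gene of the extrasynaptic delta subunit, had H3K27me3 over 31.5% of an end window from more than 1 peak, the strongest of which had 246 bp, 2.69-fold and a −log10 q of 0.702. It also had an H3K4me3 peak of 338 bp over 16.9% of that window. GABRR3, a rho subunit gene on chromosome 3, had H3K27me3 over 57.2% of its start window (597 bp, 4.26-fold). Its nearest H3K4me3 peaks lay outside that window, the strongest being one of 576 bp and 6.34-fold, 3922 bp beyond the end of the record.

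Among AMPA receptor genes, which encode the channels of fast excitatory transmission, GRIA4 had H3K4me3 over 82.2% of its start window (1904 bp, 5.99-fold) and no H3K27me3 there. GRIA2, whose subunit makes the channel impermeable to calcium, had H3K27me3 over 33.2% (415 bp, 3.96-fold) and H3K4me3 over 19.9%, below the threshold. GRIA3 stood just under it with H3K4me3 over 24.5%. GRIA1 had no H3K4me3 at its start, but a peak of 1789 bp and 3.07-fold about 61.7 kb inside the record.

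Of the 5 kainate receptor genes, 3 had an H3K4me3 call, a share near the 67.9% of all genes, and these 3 had no H3K27me3 or H3K79me2 call. GRIK2 had H3K4me3 over 100% of its window (2654 bp, 13.9-fold), GRIK4 over 43.2% (864 bp, 12.0-fold) and GRIK1 over 33.6% (673 bp, 3.10-fold). The delta gene GRID1, of a relative of the ionotropic receptors that binds synaptic organisers, had it over 47.2% (945 bp, 4.46-fold). H3K79me2 was called at 0 of these 4 genes, and reached at most 3% of a window, at GRIK1. GRIK3 was without H3K4me3 and H3K79me2 peaks over its record and the 5000 bp around it. At GRIK5, H3K27me3 covered 69.9% of the window at the 3′ end (1041 bp, 5.77-fold), and 0% at the start. An H3K79me2 peak of 10436 bp lay 3726 bp beyond the start of GRIK5, and its span plus 1000 bp holds an end of the neighbouring gene ZNF574.

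NMDA receptor genes had the most H3K27me3 calls of the roles, at 6 of 7 (9.10% of all genes). These receptors pair the obligatory subunit of GRIN1 with subunits of the other genes. At GRIN1 H3K27me3 covered 71.5% (2010 bp, 7.31-fold) and H3K4me3 93.2% (2074 bp, 6.69-fold) of the window at its higher-coordinate end, a window that also holds an end of LRRC26. At GRIN2C H3K27me3 covered 70.6% (1413 bp, 5.003-fold) of a window that also holds an end of FDXR, and H3K4me3 covered 24.5% of it, just under the threshold. At the other end of GRIN2C H3K4me3 covered 26.9%. Without windows holding another gene's end, GRIN2C lost its H3K27me3 call, and GRIN1 kept one at 31.6%. GRIN3A (45.2%, 4.62-fold) and GRIN3B (37.2%, 3.46-fold) had H3K27me3 at the annotated start without an H3K4me3 call. GRIN2B had it over 16.5% at its start and over 29.3% at its 3′ end. With peaks that reached a −log10 q of 1.3, the higher share of GRIN2B was 16.9%, below the threshold. GRIN2A, the exception, had H3K27me3 over 17.5% of an end window from a peak with −log10 q of 0.702.

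GRIN2D was the 1 member called for all 3 marks, as were 0.461% of all genes. At its start H3K4me3 covered 50.6% (1422 bp, 3.69-fold), H3K27me3 35.4% (4.15-fold) and H3K79me2 25.1% (1255 bp, 2.47-fold). The 5000 bp window of that H3K79me2 share also holds an end of KDELR1, a gene of protein return to the endoplasmic reticulum. The record of KDELR1 overlaps the start of GRIN2D. Without windows holding the end of another protein-coding gene, GABRE was the 1 member left with H3K79me2.

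Metabotropic receptor genes differed from one another within groups II and III. In group I, coupled to phospholipase C, GRM5 was called for none of the marks, though 178 H3K27me3 peaks covered 7.63% of its region. In group II, which lowers cyclic AMP, GRM3 had H3K27me3 over 32.1% of its start window (526 bp, 4.29-fold) and 16.7% of its region. GRM2 had 0 peaks of any mark within 5000 bp of its record. In group III, which also lowers cyclic AMP, GRM8 had H3K4me3 over 100% (2739 bp, 9.28-fold) and H3K27me3 over 91.8% (3538 bp, 5.44-fold) of its start window. This H3K27me3 share was the highest among the 45 genes. GRM4 had H3K4me3 over 41.2% at its start (1920 bp, 7.65-fold) with H3K27me3 over 18.3%, and GRM7 had 11.6% and 9.75%. GRM6, the receptor of retinal ON bipolar cells, had 0 peaks of any mark, so that within group III the genes ran from the highest shared coverage to no peak at all.

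Over whole records and the 5000 bp around them, the members again held less of the active marks and more H3K27me3 than other genes. A record call required 500 bp or more under peaks that reached a −log10 q of 1.3. It was met for H3K4me3 by 27 of 45 (76.8% of all genes), for H3K27me3 by 27 of 45 (16.4%) and for H3K79me2 by 5 of 45 (53.5%). The last were GABRE, GABRR2, GRIK5, GRIN2D and GRIN3B, and the H3K79me2 peaks of GRIK5 and GRIN3B that reached this q lay outside their records. Long genes met this rule more often for H3K4me3 and H3K27me3. Over 200000 bp, the H3K4me3 call was met by 14 of 21 members (90.1% of all genes of that length), the H3K27me3 call by 13 (45.1%) and the H3K79me2 call by 0 (50.6%). From 50000 to 200000 bp, H3K4me3 was met by 8 of 14 members (88.4%), H3K27me3 by 10 (20.3%) and H3K79me2 by 3 (62.9%). In both of these classes the members' share was below that of all genes for H3K4me3 and H3K79me2, and above it for H3K27me3.

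Coverage was also taken as a share of each region. The median member had 5.19% of its region under deposited H3K27me3 peaks against a median of 0.490% for all genes, and 36 of 45 members lay above that median. With peaks that reached a −log10 q of 1.3, these medians were 0.767% and 0%. In the class of 50000 to 200000 bp, 7 of 14 members lay above the 90th percentile of their class (7.16%), among them GABRA4, GABRR2, GABRR3, GRIN3A and GRM4. Among those over 200000 bp, 2 of 21 did, GABRB1 and GRM3, a share near that of all genes of the class. The median member over 200000 bp had 1.97%, against 0.689% for all genes of that length. From 50000 to 200000 bp the medians were 6.85% and 0.488%. Long members differed widely: GRIK4 had 11.3%, GRIN2B 9.77% and GRM8 8.88%, while GRIA4 had 0.449% and GRIK2 0.556%. GRIA4 and GRIK2 had H3K4me3 over at least 77.4% of an end window. GABRG3 (0.197% under H3K27me3) and GABRA3 (0.445%), also low, had no H3K4me3 call. Of the 3 higher ones, GRIK4 and GRM8 had H3K4me3 over 43.2% and 100% of an end window, and GRIN2B had 0%. Low H3K27me3 over a long record thus did not go with an H3K4me3 call throughout. For H3K79me2 the median member had 0.0517% of its region covered, against 14.1% for all genes, and GRIN2D had the most, 16.4%. The longest H3K79me2 peak reaching that region, of 6107 bp, lay 1151 bp beyond the GRIN2D record. Its span plus 1000 bp holds an end of the neighbouring gene GRWD1.

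**Figure D3:**
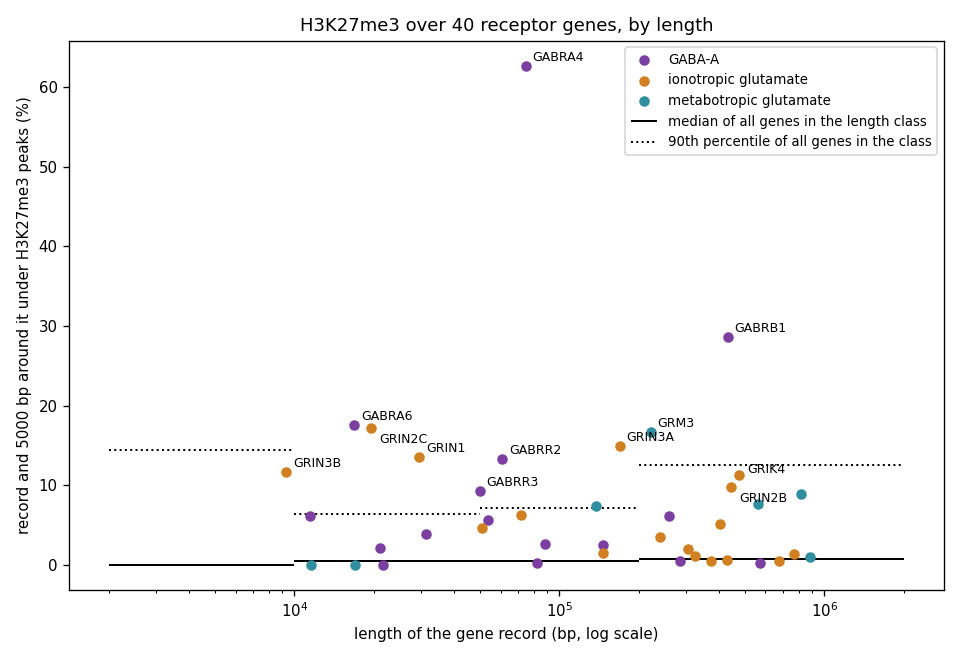
Share of the gene record and 5000 bp around it under deposited H3K27me3 peaks (vertical axis, %) against record length (log scale) for 40 of the genes, with points coloured by family. Lines give the median and 90th percentile of all genes in each of 4 length classes, and GABRA4 (62.7%) and GABRB1 (28.6%) stand highest.

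H3K27me3 also formed domains over these genes, built by joining peaks separated by gaps of 3000 bp or less and keeping stretches of 10000 bp or more that were 25% or more peak. Domains overlapped 15 of 45 members (6.99% of all genes), 7 of 21 members over 200000 bp (22.8% of genes of that length), 6 of 14 of 50000 to 200000 bp (8.31%) and 2 of 9 of 10000 to 50000 bp (4.10%). The longest, of 110766 bp, lay over GRM3 and its upstream side at chr7:86618003-86728768 and ranked 71 among 5018 domains. GABRB1 overlapped 7 separate domains, of 10634 to 96649 bp, and one of 87735 bp (63.5% in peaks) held the whole of GABRA4 and the facing end of GABRB1. At GRM8 4 domains were found, and one of 35891 bp held the start. GABRR3 shared a domain of 67312 bp with the olfactory receptor gene OR5AC2.

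H3K4me3 peaks that reached a −log10 q of 1.3 also lay inside records, more than 1000 bp from both ends and from any annotated start, in 19 of 45 members (26.9% of all genes). In the class over 200000 bp this held for 9 of 21 members and 77.7% of all genes, and in that of 50000 to 200000 bp for 8 of 14 members and 53.7% of all genes. No such peak was found in GRIN2B, GRIK3 or GRM3, 3 of the long members with many H3K27me3 peaks. The strongest was one of 17.6-fold in GRIN2D, at the end of KDELR1. Next came one of 9.15-fold in GRIK4, 2.18 kb from its 3′ end, one of 7.00-fold in GRM7, 344 kb from the start, and one of 6.88-fold in GRIN1. The peak in GRIK4 overlapped 2 H3K27me3 peaks, and those in GRM7 and GRIN1 overlapped 0. Of the 19 strongest inside peaks, those of GRIN2D and GRIK5 overlapped an H3K79me2 peak.

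Promoters rich in CG dinucleotides carry H3K4me3 in most cell types, so the marks were also set beside base composition. CG dinucleotides were counted in the 300 bases from 250 before to 50 after the annotated start. The median was 14.5 for the 32 placed members and 22 for 15812 placed genes. Among placed genes with 20 or more CG, H3K4me3 was called at 8 of 15 members (91.4% of all such genes). With 10 to 19 CG it was called at 2 of 7 (70.3%), and with under 10 CG at 2 of 10 (20.7%). The members' share was thus below that of all genes in both CG-richer classes and close to it in the CG-poorest. The 7 CG-rich members without the call were GRIK3, GRM2, GRIN3B, GABRG3, GRM5, GRIN2B and GRIN3A. Of these, GRIN3A and GRIN3B had H3K27me3 at the start, GRM5 and GRIN2B had it over 20.3% and 16.5% of the window, and GRIK3, GRM2 and GABRG3 had 0% of any mark. H3K27me3 was called at 5 of the 15 CG-rich members (6.13% of all such genes), 3 of 7 with 10 to 19 CG (5.40%) and 3 of 10 with fewer (8.19%). H3K79me2 was called at 1 of the 15 CG-rich members (72.9%), GABRE, at 0 of 7 with 10 to 19 CG (52.1%) and at 1 of 10 with fewer (13.2%), GRIN2D.

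**Figure D4:**
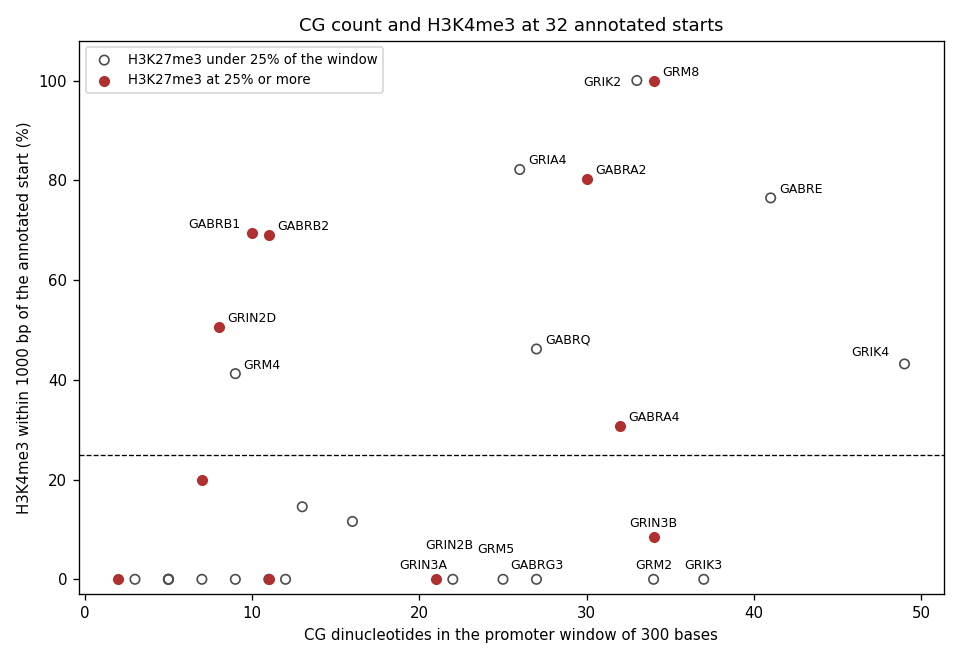
H3K4me3 within 1000 bp of the annotated start (vertical axis, % of the window under peaks) against the number of CG dinucleotides in the 300 bases around it for 32 members, with filled points for H3K27me3 over 25% or more of the window. Of the 15 genes with 20 or more CG, 8 lie above the dashed line of 25% and 7 below it.

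In the same 300 bases, on both strands, the GC box GGGCGG was found in 15 of 32 members (46.9%) and 58.5% of placed genes. The motif overlaps the CG count. Of 2 stretches of letters that belong to the motif of REST, a repressor of neuronal genes, TTCAGCACC was found in 1 of 32 (GRM2) and 0.398% of placed genes, and GGACAG in 11 of 32 (34.4%) and 21.2%. These are matches of letters, not binding sites.

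Other genes of the same synapses are read against the shares of all genes, 67.9% for H3K4me3, 9.10% for H3K27me3 and 50.9% for H3K79me2 at an end. Among 19 transporter and enzyme genes, H3K4me3 was called at 9, H3K27me3 at 8 and H3K79me2 at 3. Among the last were GLS2 and GLUL, enzymes of glutamine metabolism used by many tissues. H3K27me3 was called at GAD1 and GAD2, which make GABA, and at the vesicular transporter genes SLC17A6, SLC17A7 and SLC32A1, of which GAD1 and SLC17A7 also had H3K4me3. Among 30 genes of auxiliary, scaffold and clustering proteins, H3K4me3 was called at 24, H3K27me3 at 6 and H3K79me2 at 12, among the last GPHN, DLG1, HOMER1 and GABARAP. For H3K4me3 and H3K79me2 these counts are not far from the shares of all genes. Of the GABA-B receptor genes, GABBR1 had H3K4me3 and H3K79me2 and GABBR2 had H3K27me3. Nicotinic acetylcholine receptor genes, another family of ligand-gated channels, had H3K4me3 at 8 of 16, H3K27me3 at 5 and H3K79me2 at 3. Glycine receptor genes had H3K4me3 at 2 of 4, H3K27me3 at 0 and H3K79me2 at 1, GLRB. Differences between these lists were not tested.

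The calls depend on where a gene stands near 25%. For H3K4me3, GRIN2C (26.9%), GABRA4 and GABRB1 (30.7% each) stood just inside, and GRIA3 (24.5%), GRIA2 (19.9%) and GABRD (16.9%) just outside. For H3K27me3, GABRA2 (28.4%) and GRIN2B (29.3%) stood inside, and GRID1 (21.7%) and GRM5 (20.3%) outside. For H3K79me2 the next after GRIN2D was GABRR2 at 9.06%. With peaks that reached a −log10 q of 1.3, H3K27me3 was called at 13 members (5.52% of all genes). GABRB2, GABRD, GRIA2 and GRIN2B lost the call. Both marks then lay at the same end of 6 members (2.44%), without GABRB2. With a −log10 q of 5, H3K27me3 was called at GRIN1 and GRM8 (1.21%).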

How the data were processed

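ChIP-seq peak lists of 3 libraries from MCF10A were analysed, 1 per mark. The tools named per the submitters' processing notes are Bowtie2 2.3.1 and MACS2 2.1.1, with build hg38. Their roles, the control used and the treatment of duplicates are not given in the sources used here. Names in the deposited lists carry a p threshold of 0.05, and those of H3K4me3 and H3K79me2 the word broad. The fold the authors deposited for each peak is its enrichment ratio relative to the peak caller's background, and the deposited −log10 p and −log10 q are the caller's. Peaks were called per library, as the deposited lists show. Lists held 67781 (H3K4me3), 393202 (H3K27me3) and 112731 (H3K79me2) peaks on the 23 chromosomes used. Peak lists do not give read depth, which is therefore unknown, and no interval or detection limit is given. Fold describes peaks within 1 list and is not compared between marks.

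Gene records and starts came from RefSeq tables of GRCh38.p14. Windows at the annotated start were planned if at least 80% of the members were placed. The table placed 71.1% (32 of 45), so both ends of each record were examined, and annotated starts became an alternative. Coverage was computed in Python 3.11.15 with pandas 2.3.3 and numpy 2.4.6 on merged peaks, with a function tested on simulated data. The members and lists were chosen with earlier results of these data known. Genes were named by role, cluster and rank of covered share, and every member enters the counts, but results on some items are not reported here. Clusters joined GABA-A genes up to 1000000 bp apart. The CG classes, the marker genes, the domain rule and the inside-peak rule were chosen after the peak lists had been seen. Alternatives changed the peak threshold, covered share, window, gene end and flank.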

Additional observations from a re-analysis of the deposited data

How the results depend on the processing

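With 1 library per mark, no replicate could be left out and no depth is known. No paired analysis was possible because each mark has 1 library and no result comes from a test. Counts below are members of 45 for H3K4me3, H3K27me3, H3K79me2 and the first 2 together. At an end they were 17, 17, 2 and 7. At fold of at least 5 they were 11, 4, 0 and 2 (62.8%, 1.69%, 3.56% and 0.786% of all genes). With any covered base they were 27, 31, 6 and 22, and where 50% was required, 9, 8, 1 and 3. Peaks reaching a −log10 q of 5 gave 2, 0 and 2 for the last 3 counts (1.21%, 12.6% and 0.646%). Windows of 2000 bp (10000 bp inward for H3K79me2) gave 11 for H3K4me3 (65.8%) and 1 for H3K79me2 (49.2%). At annotated starts H3K27me3 was called at 11 (6.56% of placed genes). That count is of 32 placed members and not of 45, so the smaller set lowers it beside the 17 at an end. Without windows holding another gene's end, an alternative chosen after seeing the data, H3K79me2 was called at 1 (46.4%) and both marks at 4 (3.28%).

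Over records, H3K4me3 fell from 27 to 14 at 2000 bp covered (65.6% of all genes). H3K27me3 fell from 27 to 6 with peaks reaching a −log10 q of 5 (2.98%). H3K79me2, at 5, was 17 with all deposited peaks (68.3%) and 2 with a −log10 q of 5 (16.7%). It was 2 at 2000 bp covered (50.1%) and 3 with 0 bp around the record (47.8%). The cause of these moves was not tested. The other alternatives stayed within 1.5 times the count given. In all settings run, those not listed included, the H3K4me3 and H3K79me2 shares of members stayed below, and the H3K27me3 share above, that of all genes.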
